A study of Mus musculus with 12 samples.

Results

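The 42 genes described here encode blood coagulation and complement proteins that the liver makes for the plasma. They were taken as a list of gene symbols grouped by function. The rule uses no measured value, although it was written with earlier results of these data known. All 42 are among the 36144 symbols of the deposited table. They fall into 3 fibrinogen genes, 10 clotting genes, 8 anticoagulant and fibrinolytic genes and 21 complement genes. Their transcripts were followed in primary mouse hepatocytes, liver parenchymal cells put into culture after collagenase digestion of the liver of a wild-type C57/Bl6J mouse. There were 12 libraries of poly-A RNA, 3 in each of 4 groups, and all cells had spent 16 h in medium without serum. Mock cells received no hormone mimic. FD cells received 10 µM forskolin, which activates adenylate cyclase and so raises cAMP, together with 1 µM dexamethasone, a synthetic glucocorticoid, for the last 5 h. FDI cells received these agents and 100 nM insulin, which was added 1 h before them. FDMn cells received them after 16 h with 6 µM manganese chloride. No group had insulin or manganese alone, so an effect on the response to forskolin and dexamethasone and an effect of either agent by itself cannot be told apart. Insulin and manganese also differed in length of exposure. The labels name a single animal and do not say that replicates are separate preparations, so p-values cover only how these libraries vary, and that variation may be technical. A culture of hepatocytes also lacks the blood cells and vessel wall on which these proteins act.

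Coagulation is a cascade of plasma proteases that ends with thrombin cutting fibrinogen into fibrin, and it is held in check by protein C, protein S, antithrombin and other inhibitors until plasmin dissolves the clot. Complement is a related plasma cascade in which the classical, lectin and alternative routes meet at C3 and lead to the pore of the terminal components. Hepatocytes are the main source of most of these proteins, and interleukin-6 with glucocorticoid is known to raise fibrinogen and several complement components in the acute phase response.

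Fibrinogen is built from 3 chains encoded by neighbouring genes, whose start-site sequences are shown because fibrinogen had the widest median spread of group means among the 4 lists. On GRCm38, Fgg, Fga and Fgb lie at chr3:83007724-83049863, where Fgg and Fga are on the plus strand and Fgb is on the minus strand. The 250 bases before each RefSeq start site (GRCm38.p6) are given 5′ to 3′ on the strand of the gene. Capitals mark exact matches, on either strand, to the HNF1 half-site GTTAAT (read as ATTAAC when on the other strand), the interleukin-6 response element CTGGGAA and the C/EBP core TTGCNNAA.
Fga (chr3:83025903-83026152, plus strand): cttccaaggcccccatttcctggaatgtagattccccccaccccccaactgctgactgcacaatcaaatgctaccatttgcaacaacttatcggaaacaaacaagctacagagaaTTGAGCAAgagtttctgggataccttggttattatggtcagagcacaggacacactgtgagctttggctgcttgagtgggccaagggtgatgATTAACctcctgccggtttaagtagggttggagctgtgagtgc
Fgb (chr3:83049864-83050113, minus strand): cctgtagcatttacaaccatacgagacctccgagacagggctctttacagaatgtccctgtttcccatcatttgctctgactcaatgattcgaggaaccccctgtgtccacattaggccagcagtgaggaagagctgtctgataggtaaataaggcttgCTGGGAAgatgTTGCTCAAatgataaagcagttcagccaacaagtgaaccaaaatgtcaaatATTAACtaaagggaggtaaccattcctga
Fgg (chr3:83007474-83007723, plus strand): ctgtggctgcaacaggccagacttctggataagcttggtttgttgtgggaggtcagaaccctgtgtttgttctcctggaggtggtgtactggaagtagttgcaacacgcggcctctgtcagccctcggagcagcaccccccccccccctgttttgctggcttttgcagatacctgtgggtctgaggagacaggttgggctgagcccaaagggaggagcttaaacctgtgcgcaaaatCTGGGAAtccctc
The Fgb window held all 3 motifs, with the interleukin-6 element at −91 to −85, the C/EBP core at −80 to −73 and the HNF1 half-site at −29 to −24 from the start site. In the Fga window the C/EBP core stood at −135 to −128 and the HNF1 half-site at −43 to −38. Of the 3 motifs, only the interleukin-6 element was found in the Fgg window, at −13 to −7. A window was listed for 33 of the 42 genes (35 windows). The HNF1 half-site was in 9 of these 35 windows (25.7%) and in 6.43% of all 32851 windows, and the C/EBP core was in 9 (25.7%) and in 9.56%. The STAT core TTCNNNGAA was in 6 member windows (17.1%) against 7.02% of all, and the interleukin-6 element was in 5 (14.3%) against 9.10%. The STAT core, not capitalized above, stood at −234 to −226 in the Fga window and −162 to −154 in the Fgb window, and was absent from that of Fgg. Motifs of the pathways on which the added agents act were also searched. The full palindromic glucocorticoid response element was in 0 of 35 windows and 0.387% of all, the cAMP response element core TGACG in 6 (17.1%) and 17.8%, and the FOXO core GTAAACA in 2 (5.71%, F11 and Klkb1) and 3.17%. The interleukin-6 element and the STAT core can overlap, as can a STAT core and a C/EBP core, although the 3 kinds printed in capitals do not overlap in these windows. A match is a run of letters, not a measured binding site, and 9 member genes had no window.

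Values are TPM, a length-corrected share of the transcripts of each library, scaled to the same total in all of them. Between 10900 and 11161 genes per library reached 1 TPM, and the correlation between replicates over genes (which are not independent) was 0.981 to 0.991. FD replicates 1 and 2 lay apart from FD replicate 3 on the second principal component (scores of 22.3, 29.0 and 7.98), so counts that use the FD group are also given with replicate 3 as its only library. The cells carried hepatocyte markers at a summed 29870 to 40472 TPM, most of it Alb. Kupffer cell and macrophage markers summed to 6.90 to 11.9 TPM with 5 of 11 below 1 TPM in every library, sinusoidal endothelial markers to 20.96 to 36.6 TPM with 3 of 10 below it, and stellate cell and fibroblast markers to 4.55 to 7.64 TPM with 5 of 9 below it. Cholangiocyte markers summed to 732 to 1606 TPM, nearly all from Spp1, Cldn4 and Sox9, while Krt19, Krt7 and Epcam had group means of at most 0.726 TPM. Megakaryocyte and platelet markers summed to 1.86 to 6.76 TPM, of which Itga2b was the main part. Of the 42 members, 41 reached 1 TPM in at least 3 libraries and were tested. Cd55, which protects cells from complement, had 0.439 to 0.903 TPM and was not tested.

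The 42 genes together made up 0.854% ± 0.0235 of all transcripts in Mock, 0.866% ± 0.0278 in FD, 0.833% ± 0.0107 in FDI and 0.949% ± 0.0437 in FDMn (SD, n = 3 each). C3 was the highest, with group means of 1583 to 1811 TPM, and Klkb1 the lowest of those tested, with 2.41 to 2.78 TPM. Many members differed little, and 19 of 41 had group means within 1.2-fold of each other. Only Fga, Fgb, Fgg, F11, F13b and Proz had group means more than 1.5-fold apart. FDMn held the highest group mean for 22 members, Mock for 9, FD for 7 and FDI for 3, whatever the size of the difference. Masp2, for example, was highest in FDMn with group means only 1.06-fold apart. These counts of group means involve no test and were made for the members only, so no share over all genes stands beside them. In bulk RNA, fewer cells of a type and less RNA per cell cannot be told apart.

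Each comparison was tested with limma on log2(TPM + 1), over all genes, at an adjusted p of 0.05. In FD against Mock 5 of 41 members rose and 4 fell (22.0%), where 11.2% of all 11544 tested genes rose and 29.9% fell. The median log2 change was 0.07 over the members and −0.15 over all genes. With median-of-ratios scaling, which moves the median of all genes to −0.01, 20 members rose and 1 fell against 2042 and 1988 of all genes. Under quantile normalization, with a median of −0.04, 9 rose and 2 fell against 1782 and 2178 of all genes. The direction of a small FD against Mock change therefore depended on the scaling. In FDI against FD 0 members rose and 6 fell (14.6%), with 0 higher and 12 lower at an unadjusted p under 0.05, and 10.2% of all genes rose and 4.35% fell. In FDMn against FD 8 members rose and 4 fell (29.3%), where 7.22% of all genes rose and 7.90% fell. In FDMn against FDI 14 members rose and 1 fell (36.6%), where 5.68% of all genes rose and 11.9% fell. The change itself uses no Mock or FD library, but the spread was estimated over all 12 libraries. In a fit of only these 2 groups 15 members rose and 1 fell, beside 779 and 1606 of all genes. The members' medians in these last 3 comparisons were −0.09, 0.06 and 0.14, beside 0.04, 0.003 and −0.04 over all genes.

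Some of these counts turned on a few libraries. With FD replicate 3 as the only FD library, 7 members rose and 0 fell against Mock (10 and 2 at an unadjusted p under 0.05, limma), 0 rose and 3 fell in FDI against FD, and 3 rose and 1 fell in FDMn against FD. Over all genes fewer were called in each direction in these comparisons than with all 3 FD libraries, whereas more members were called higher against Mock. Without Mock replicate 3 only 1 member fell in FD against Mock, where 2949 of all genes fell beside 3447 with all libraries. In FDMn against FD 4 members rose without FDMn replicate 2 and 5 without FD replicate 2. There, 2 members fell without FDMn replicate 1 or without FD replicate 1. Over all genes these fits gave 538 and 634 higher, and 540 and 621 lower, beside 834 and 912 with all libraries. In FDI against FD 3 members fell without FD replicate 1, and in FDMn against FDI 9 rose without FDMn replicate 2 or FDI replicate 2. Over all genes 341 fell in the former, beside 502, and 404 and 432 rose in the latter, beside 656. Calls over all genes thus also became fewer in these fits. Of the 42 calls made on members over the 4 comparisons, 20 held under every alternative tried, 22 were lost under at least 1 and 0 changed sign.

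**Figure D1:**
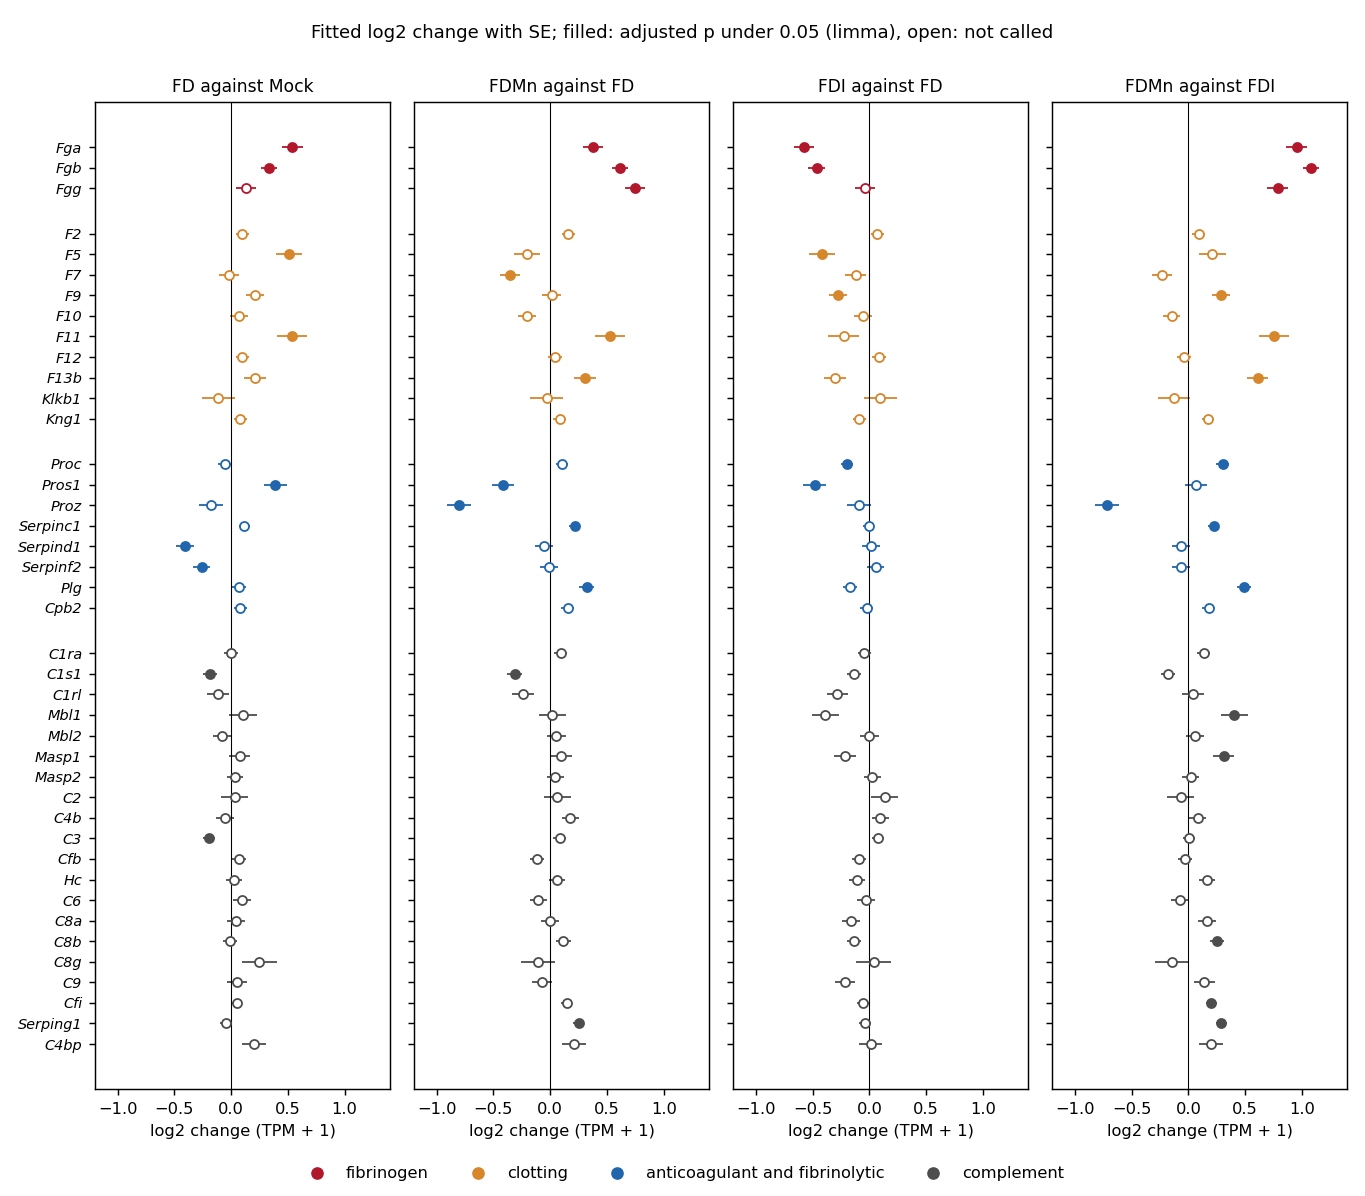
Fitted log2 change of each of the 41 tested members (x axis, log2(TPM + 1) scale, bars 1 SE) in the 4 comparisons, 1 panel each, coloured by list. Filled points passed an adjusted p of 0.05 (9, 12, 6 and 15 of 41 in FD against Mock, FDMn against FD, FDI against FD and FDMn against FDI), and the fibrinogen genes stand farthest to the right in FDMn against FDI.

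Of the 4 lists, fibrinogen had the widest spread, with a median of 1.95-fold between the highest and lowest group means. The 3 genes summed to 641 ± 33.2 TPM in Mock, 806 ± 26.9 in FD, 630 ± 51.7 in FDI and 1217 ± 138 in FDMn (SD, n = 3 each). Fga, the alpha chain, had 167, 162 and 181 TPM in the Mock libraries, 253, 239 and 251 in FD, 153, 162 and 183 in FDI, and 302, 375 and 294 in FDMn. The FD and FDMn libraries were all above the Mock and FDI libraries, which overlapped each other. Fgb, the beta chain, had 252, 246 and 276 TPM in Mock, 342, 321 and 312 in FD, 230, 228 and 248 in FDI, and 480, 553 and 465 in FDMn. Its order was the same as that of Fga, with every FDMn library above every FD library. Fgg, the gamma chain, had 209, 208 and 221 TPM in Mock, 242, 231 and 228 in FD, 208, 220 and 258 in FDI, and 368, 448 and 366 in FDMn. For Fgg only the FDMn libraries stood clear of all others, since FDI spanned the range from Mock to above FD.

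Under forskolin and dexamethasone Fga rose 1.45-fold over Mock (log2 change 0.54 ± 0.09 SE, adjusted p = 0.000555) and Fgb rose 1.26-fold (0.33 ± 0.07, adjusted p = 0.00292). Fgg had a log2 change of 0.13 ± 0.09 and did not pass (adjusted p = 0.26), although its FD libraries did not overlap Mock and it was called under median-of-ratios scaling. With insulin, Fga fell from a mean of 247 to 166 TPM (−0.58 ± 0.09, adjusted p = 0.00144) and Fgb fell from 325 to 235 TPM (−0.47 ± 0.07, adjusted p = 0.00118). Fgg had 233 TPM in FD and 228 in FDI (−0.04 ± 0.09, adjusted p = 0.82). With manganese all 3 rose further over FD, Fga 1.31-fold (0.38 ± 0.09, adjusted p = 0.017), Fgb 1.54-fold (0.62 ± 0.07, adjusted p = 0.000194) and Fgg 1.69-fold (0.75 ± 0.09, adjusted p = 0.000215). In the direct comparison FDMn exceeded FDI 1.95-fold for Fga (adjusted p = 3.69e-05), 2.12-fold for Fgb (adjusted p = 3.25e-06) and 1.73-fold for Fgg (adjusted p = 0.000113). The Fga call in FDMn against FD was lost without FDMn replicate 2 (which had the highest value) or without FD replicate 2, at log2 changes of 0.27 to 0.35. With FD replicate 3 alone, that Fga change was 0.36 (adjusted p = 0.173), and the Fgb change in FD against Mock was 0.28 (adjusted p = 0.0662). The other called fibrinogen changes held under that setting.

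**Figure D2:**
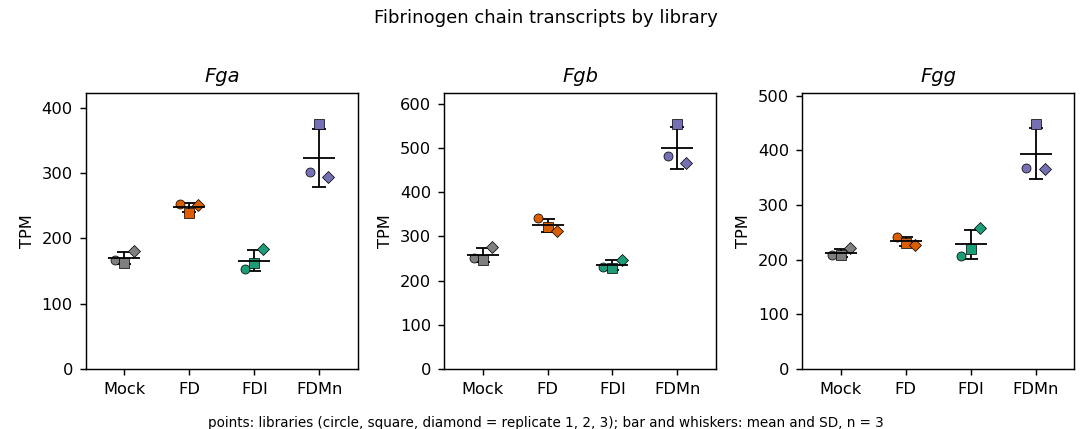
TPM of Fga, Fgb and Fgg in each library by group (y axis from 0). Points are libraries, and bars and whiskers are the mean and SD of 3. FDMn libraries are the highest in each panel, and FD libraries lie above Mock and FDI for Fga and Fgb.

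The balance between the chains also shifted. Fga made up 26.5% ± 0.171 of the summed fibrinogen TPM in Mock, 30.7% ± 0.854 in FD, 26.4% ± 0.391 in FDI and 26.5% ± 0.622 in FDMn (SD, n = 3 each). The lowest FD library, at 30.2%, lay above the highest library of any other group, at 27.2%. Fgg took 29.0% ± 0.191 in FD and 33.2% ± 0.596, 36.2% ± 1.14 and 32.4% ± 0.300 in Mock, FDI and FDMn. All FD libraries were thus lower for Fgg than every other library. The share of Fgb was 40.2% ± 0.449, 40.3% ± 0.707, 37.4% ± 1.48 and 41.1% ± 0.807 in Mock, FD, FDI and FDMn. These shares are described without a test.

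**Figure D3:**
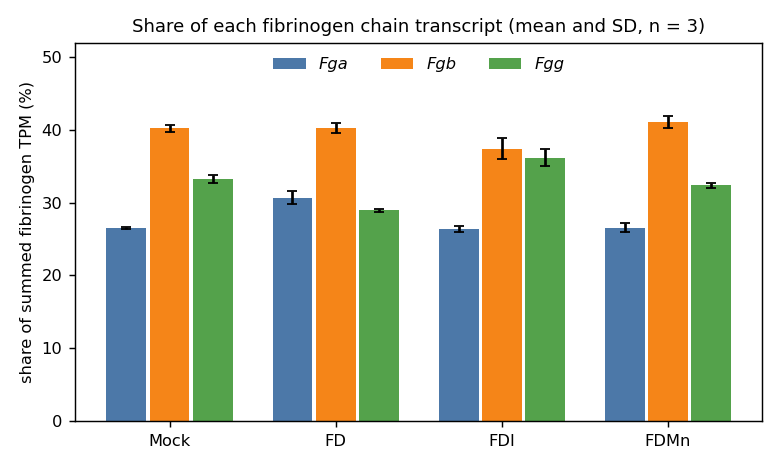
Share of each chain in the summed fibrinogen TPM (y axis, percent) by group, with bars for the mean and whiskers for the SD of 3 libraries. The Fga bar is tallest in FD, at 30.7%, where the Fgg bar is shortest, at 29.0%.

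A platelet marker had the same order of group means as summed fibrinogen. Itga2b, the alpha subunit of the platelet fibrinogen receptor, had group means of 2.35 TPM in Mock, 4.37 in FD, 2.10 in FDI and 5.78 in FDMn. The other platelet markers were at or near 0, with group means of at most 0.280 TPM for Pf4, at most 0.0291 for Ppbp, Gp1ba and Gp6, and Gp9 at 0 in all 12 libraries. The summed cholangiocyte markers were also highest in FDMn (1495 TPM against 760 in FD), a difference made by Spp1, which had 681 TPM in FD and 1418 in FDMn. Their part in the fibrinogen result was not tested.

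Among the 10 clotting genes, 2 rose in FD against Mock, 2 fell in FDI against FD, 2 rose and 1 fell in FDMn against FD, and 3 rose in FDMn against FDI. In that order, 20%, 20%, 30% and 30% were called, beside 41.1%, 14.5%, 15.1% and 17.6% of all genes. F11, a protease that activates factor IX, had 19.8, 13.7 and 17.3 TPM in Mock, 26.0, 24.05 and 24.2 in FD, 18.1, 19.7 and 26.0 in FDI, and 35.6, 37.6 and 35.0 in FDMn. Every FDMn library exceeded all others, while the FDI libraries overlapped both Mock and FD. F11 rose 1.46-fold in FD (0.54 ± 0.14 SE, adjusted p = 0.00749), and FDMn exceeded FD 1.46-fold (0.53 ± 0.14, adjusted p = 0.0221) and FDI 1.70-fold (0.75 ± 0.14, adjusted p = 0.00267). The FDMn against FD call of F11 was lost without any one of the FDMn libraries or FD replicate 2, at log2 changes of 0.50 to 0.55.

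F13b, the carrier subunit of the factor that cross-links fibrin, had 10.8, 11.5 and 11.5 TPM in Mock, 14.4, 12.1 and 13.1 in FD, 10.95, 10.48 and 10.1 in FDI, and 15.4, 18.8 and 15.6 in FDMn. FDMn was again the highest group without overlap. It rose 1.58-fold over FDI (0.61 ± 0.10, adjusted p = 0.00104) and 1.26-fold over FD (0.31 ± 0.10, adjusted p = 0.0488). The latter was lost in 5 of 6 fits that left out a library (without any of the FDMn libraries, FD replicate 2 or FD replicate 3), at 0.22 to 0.36. F5, the cofactor of the prothrombin-cutting complex, behaved otherwise. It rose from 14.9 ± 2.00 TPM in Mock to 21.5 ± 0.830 in FD (0.51 ± 0.12, adjusted p = 0.00404) and fell to 15.9 ± 2.39 in FDI (−0.42 ± 0.12, adjusted p = 0.0316). In FDMn it had 18.5 ± 1.28 TPM and did not pass against FD (−0.21 ± 0.12, adjusted p = 0.26). Its FDI against FD call was lost without FDI replicate 1 or any one of the FD libraries, at −0.44 to −0.30.

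F7, which starts clotting with tissue factor, was lower in FDMn (8.11 ± 0.388 TPM) than in FD (10.7 ± 0.427), with a log2 change of −0.36 ± 0.09 (adjusted p = 0.0201). That call was lost without FDMn replicate 1, FDMn replicate 3 or FD replicate 1, at −0.37 to −0.32. F9, the haemophilia B factor, fell from 46.8 ± 5.18 TPM in FD to 38.4 ± 1.76 in FDI (−0.28 ± 0.08, adjusted p = 0.0404) and was higher in FDMn at 47.1 ± 2.28 (0.29 ± 0.08 over FDI, adjusted p = 0.0291). The first of these calls was lost without any one FDI library, FD replicate 1 or FD replicate 2 (−0.31 to −0.19), the other without FDMn replicate 2 or 3 or FDI replicate 1 or 2 (0.25 to 0.29). Prothrombin (F2), F10, F12, the kininogen gene Kng1 and the prekallikrein gene Klkb1 passed in none of the 4 comparisons of the main analysis. Their group means ranged from 438 to 524 TPM, 61.4 to 70.8, 183 to 208, 663 to 747 and 2.41 to 2.78. The log2 changes of F2 and F12 in FD against Mock were larger with FD replicate 3 as the only FD library, at 0.22 and 0.21 beside 0.10 for each. With median-of-ratios scaling 8 of 10 clotting genes rose in FD against Mock, namely F2, F5, F9, F10, F11, F12, F13b and Kng1. Under that scaling 2042 of all 11542 genes rose. With FD replicate 3 alone, the F11 change was 0.51 against Mock (adjusted p = 0.0902), the F5 and F9 changes in FDI against FD were −0.48 and −0.15 (adjusted p = 0.172 and 0.43), and those of F7, F11 and F13b in FDMn against FD were −0.37, 0.55 and 0.31 (adjusted p = 0.152, 0.162 and 0.214). Except for F9, these changes were close to those with all 3 FD libraries.

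**Figure D4:**
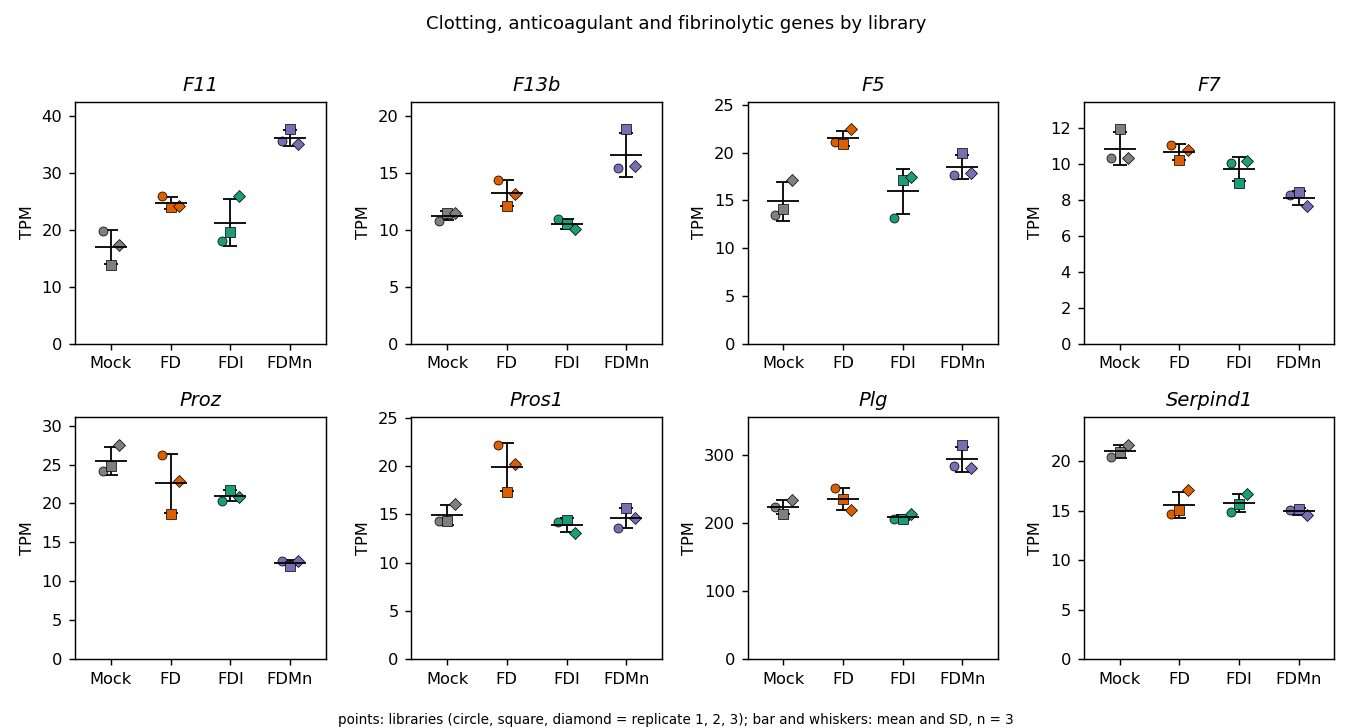
TPM per library by group for F11, F13b, F5, F7, Proz, Pros1, Plg and Serpind1 (y axis from 0 in each panel, points are libraries, bars and whiskers are mean and SD of 3). Proz is lowest in FDMn, F11 and F13b are highest there, Pros1 and F5 are highest in FD, and Serpind1 is highest in Mock.

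The anticoagulant and fibrinolytic genes moved in both directions. Proz, which encodes protein Z, a vitamin K-dependent cofactor for the inhibition of factor Xa, had 24.1, 24.8 and 27.5 TPM in Mock, 26.2, 18.7 and 22.8 in FD, 20.4, 21.8 and 20.8 in FDI, and 12.6, 11.97 and 12.6 in FDMn. The FDMn libraries lay below all others. Proz fell from 22.6 ± 3.75 TPM in FD to 12.4 ± 0.358 in FDMn (−0.81 ± 0.10, adjusted p = 0.0004), and FDMn was also below FDI (−0.72 ± 0.10, adjusted p = 0.000655). Both calls held when any one library was left out. Proz was the sole member called lower in FDMn than in FDI, where 3 were lower at an unadjusted p under 0.05. It lies next to F7 and F10 at chr8:13026034-13076026 on GRCm38, where F7 was also lower in FDMn than in FD and F10 had a log2 change of −0.20 ± 0.08 (adjusted p = 0.0979).

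Pros1, protein S, the cofactor of activated protein C, had its highest level in FD. It rose from 14.9 ± 1.03 TPM in Mock to 19.9 ± 2.44 in FD (0.39 ± 0.10, adjusted p = 0.0073) and fell to 13.9 ± 0.705 in FDI (−0.48 ± 0.10, adjusted p = 0.00661) and 14.6 ± 1.06 in FDMn (−0.42 ± 0.10, adjusted p = 0.0143). The last call was lost without FDMn replicate 1 or FD replicate 1, at −0.37 to −0.34. Plg, the precursor of plasmin, rose in FDMn to 293 ± 18.6 TPM from 234 ± 16.2 in FD (0.32 ± 0.06, adjusted p = 0.00573) and from 208 ± 3.66 in FDI (0.49 ± 0.06, adjusted p = 0.000294). Serpinc1, antithrombin, went from 586 ± 17.6 TPM in FD to 682 ± 37.5 in FDMn (0.22 ± 0.05, adjusted p = 0.0125), a call lost without FDMn replicate 2 (0.18). Proc, protein C, fell from 182 ± 5.73 TPM in FD to 159 ± 4.98 in FDI (−0.20 ± 0.05, adjusted p = 0.0302), a call lost without FDI replicate 2, FDI replicate 3 or FD replicate 1 (−0.19 to −0.18), and FDMn exceeded FDI with 196 ± 12.2 TPM (0.30 ± 0.05, adjusted p = 0.00271).

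Serpind1, heparin cofactor II, fell from 21.001 ± 0.624 TPM in Mock to 15.6 ± 1.32 in FD (−0.41 ± 0.08, adjusted p = 0.00133), and neither insulin nor manganese gave a call against FD (adjusted p = 0.927 and 0.687). Its fall was the sole lower call on a member in FD against Mock under median-of-ratios scaling. Serpinf2, the plasmin inhibitor alpha-2-antiplasmin, fell from 110 ± 4.84 to 92.0 ± 10.3 TPM (−0.26 ± 0.08, adjusted p = 0.0179). That call was lost without FD replicate 1, FD replicate 2 or Mock replicate 3 (−0.23 to −0.21) and under both other scalings. Cpb2, which slows fibrinolysis, passed in no comparison of the main analysis, with group means from 440 to 518 TPM. With FD replicate 3 alone, Serpind1 had −0.28 and Serpinf2 −0.081 against Mock (adjusted p = 0.0629 and 0.504), while the calls of Pros1 against Mock and FDI held. In FDMn against FD the calls of Proz and Plg held under that setting and those of Pros1 and Serpinc1 did not (−0.44 and 0.19, adjusted p = 0.0623 and 0.14), nor did that of Proc in FDI against FD (−0.20, adjusted p = 0.175).

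Complement genes had the narrowest spread of group means of the 4 lists, with a median of 1.15-fold between the highest and lowest group. Of the 20 tested, 13 had group means within 1.2-fold and 0 had means more than 1.5-fold apart, and the widest was C1s1 at 1.42-fold. Their summed level was 4880 ± 159 TPM in Mock, 4671 ± 130 in FD, 4618 ± 115 in FDI and 4791 ± 187 in FDMn (SD, n = 3 each). In FD against Mock 41.1% of all genes were called, and of the complement genes 0 rose and 2 fell (10%), C3 and C1s1. C3, on which all routes converge, went from 1806, 1739 and 1889 TPM in Mock to 1588, 1486 and 1674 in FD (−0.20 ± 0.05, adjusted p = 0.0128). C1s1, a protease of the C1 complex, had 285, 252 and 262 TPM in Mock and 234, 244 and 224 in FD (−0.19 ± 0.06, adjusted p = 0.0298). The groups did not overlap in either case, but the C3 call was lost without Mock replicate 3 (−0.16) and the C1s1 call without FD replicate 1 or 3 or Mock replicate 1 or 3 (−0.20 to −0.14). On FD replicate 3 alone, C3 had −0.11 and C1s1 −0.25 (adjusted p = 0.22 and 0.0515). With median-of-ratios scaling neither fell and 5 others rose, C1ra, Cfb, C6, Cfi and C4bp, beside 2042 higher and 1988 lower of all 11542 genes. Under quantile normalization 1 fell (C3) and 2 rose (C6 and C4bp), beside 2178 lower and 1782 higher of all 11544 genes.

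In FDI against FD no complement gene passed (0 higher and 4 lower at an unadjusted p under 0.05, limma), where 14.5% of all genes did. Under both other scalings 2 fell, C1rl and Mbl1, beside 703 (median-of-ratios) and 690 (quantile) of all genes. In FDMn against FD, C1s1 fell further to 175, 191 and 198 TPM (−0.31 ± 0.06, adjusted p = 0.00526), and Serping1 rose. Serping1 encodes C1 inhibitor, which blocks C1s and also factors XIa, XIIa and kallikrein. It had 424, 381 and 419 TPM in FD and 481, 488 and 486 in FDMn (0.25 ± 0.05, adjusted p = 0.00533). Neither call held with FD replicate 3 alone, where C1s1 had −0.25 (adjusted p = 0.127) and Serping1 0.21 (adjusted p = 0.056). In FDMn against FDI 5.68% of all genes were called higher, and so were 5 of the 20 complement genes (25%, with 7 at an unadjusted p under 0.05). These were Serping1 (0.29 ± 0.05, adjusted p = 0.00189), the lectin pathway genes Mbl1 (0.40 ± 0.12, adjusted p = 0.0372) and Masp1 (0.31 ± 0.10, adjusted p = 0.0428), the pore component C8b (0.25 ± 0.06, adjusted p = 0.0185) and the C3b-cleaving protease Cfi (0.20 ± 0.05, adjusted p = 0.0178). Each except Serping1 lost its call when single libraries were left out. Masp1 lost it without any one of the 6 (0.24 to 0.35) and Mbl1 without any except FDMn replicate 1 (0.33 to 0.44). C8b lost it without FDMn replicate 2, FDI replicate 2 or FDI replicate 3 (0.21 to 0.25), and Cfi without FDMn replicate 2 or 3 or FDI replicate 2 or 3 (0.18 to 0.20).

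The remaining complement members passed in none of the 4 comparisons of the main analysis. They were C1ra and C1rl of the C1 family, the lectin pathway genes Mbl2 and Masp2, the convertase genes C2, C4b and Cfb, the terminal components Hc (C5), C6, C8a, C8g and C9, and the regulator C4bp. Cfb was the second most abundant complement transcript, with group means of 862 to 934 TPM. C8g varied most between replicates of a group, from 69.9 to 101 TPM in FD and 67.6 to 102 in FDI. Its log2 change in FD against Mock was 0.25, and 0.59 with FD replicate 3, its highest FD library, alone. That of C4bp was 0.20, and 0.41 in that setting. Neighbouring members were not always called together. C8a and C8b lie at chr4:104766317-104876398, and in FDMn against FDI C8a had a log2 change of 0.16 ± 0.08 (adjusted p = 0.179) where C8b was called. Both changes were in the same direction, and under quantile normalization both genes were called higher. C1rl, C1ra and C1s1 lie at chr6:124493113-124542359, and in FDMn against FD C1ra had 0.09 ± 0.06 (adjusted p = 0.334) where C1s1 fell. C2 and Cfb are close neighbours with C4b at chr17:34728380-34898265, and the GENCODE M21 spans of these genes do not overlap each other. The annotation behind the TPM values is not given, so whether reads were split between them is not known. The near-identical copies C1rb and C1s2 had group means of at most 0.121 TPM, whereas Kng2, the copy of Kng1, had 130 to 143 TPM, so the split between Kng1 and Kng2 is uncertain.

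Other genes of the coagulation and fibrinolysis system included larger differences than any member showed. Of 25 listed, 20 were tested. In FD against Mock 5 rose and 8 fell, in FDI against FD 5 rose and 2 fell, in FDMn against FD 4 rose and 2 fell, and in FDMn against FDI 2 rose and 5 fell. In that order, 65%, 35%, 30% and 35% of the 20 genes were called, beside 41.1%, 14.5%, 15.1% and 17.6% of all genes. F3, tissue factor, had 72.4, 85.9 and 75.8 TPM in Mock, 46.3, 42.9 and 39.8 in FD, 94.6, 95.8 and 103 in FDI, and 49.1, 41.0 and 45.8 in FDMn. It fell in FD (−0.84 ± 0.09, adjusted p = 9.47e-06) and was 2.28-fold higher with insulin (1.17 ± 0.09, adjusted p = 4.51e-06), while FD and FDMn overlapped. F3 was lower in FDMn than in FDI (−1.10 ± 0.09, adjusted p = 8.52e-06), the opposite side from fibrinogen.

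Plaur, Plat and Anxa2, which take part in plasmin formation at the cell surface, fell with forskolin and dexamethasone. The urokinase receptor Plaur went from 54.6 ± 9.94 TPM in Mock to 21.7 ± 1.80 in FD (−1.28 ± 0.11, adjusted p = 2.7e-06) and was higher again in FDI (39.5 ± 1.499) and FDMn (35.2 ± 2.24), with calls in both. Plat, tissue plasminogen activator, had 4.95 ± 0.135 TPM in Mock and 0.527 ± 0.303 in FD (−1.98 ± 0.16, adjusted p = 1.27e-06). Anxa2, a surface receptor for plasminogen, fell from 625 ± 25.7 to 441 ± 25.6 TPM (−0.50 ± 0.06, adjusted p = 4.34e-05) and rose in FDI and in FDMn over FD (0.30 ± 0.06 and 0.35 ± 0.06). With FD replicate 3 alone, the Anxa2 changes in FDI and FDMn were 0.21 and 0.25 (adjusted p = 0.193 and 0.101) and the Plaur change in FDMn was 0.55 (adjusted p = 0.0831), and none passed. The cell-surface partners of protein C rose in FD. Thrombomodulin (Thbd) went from 0.381 ± 0.150 to 2.34 ± 0.246 TPM (1.27 ± 0.14, adjusted p = 1.84e-05) and its partner receptor Procr from 1.59 ± 0.136 to 4.004 ± 0.4998 TPM (0.95 ± 0.15, adjusted p = 0.000317). Neither was called between FD, FDI and FDMn. Thbd is also a marker of endothelial cells, whose summed markers, Thbd included, had means of 21.7 TPM in Mock and 29.9 in FD. Single markers on that list went both ways, with Lyve1 at 1.43 and 5.34 TPM and Stab1 at 5.25 and 3.32 in Mock and FD. The part of such cells in the rise of Thbd and Procr was not tested.

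The protease-activated receptor genes differed in direction in FD against Mock. F2r, the main thrombin receptor gene of the family, rose from 21.2 ± 2.22 TPM in Mock to 37.8 ± 1.95 in FD (0.81 ± 0.09, adjusted p = 1.79e-05) and fell to 23.997 ± 2.24 in FDI and 19.4 ± 0.595 in FDMn (−0.64 ± 0.09 and −0.93 ± 0.09). F2rl1, a relative that trypsin-like proteases activate, fell from 4.41 ± 0.481 to 1.77 ± 0.490 TPM in FD (−0.98 ± 0.15, adjusted p = 0.000277) and was lower in FDMn than in FDI (−0.68 ± 0.15, adjusted p = 0.00941). Serpina10, the inhibitor of factor Xa that works with protein Z, had 52.5 ± 1.32 TPM in FD and 40.4 ± 1.45 in FDMn (−0.37 ± 0.06, adjusted p = 0.00176), so that both it and Proz fell with manganese. Hrg, histidine-rich glycoprotein, a plasma protein that binds plasminogen and heparin, followed the order of Fga and Fgb. It had 91.0 ± 3.56 TPM in Mock, 104 ± 1.36 in FD, 89.8 ± 1.51 in FDI and 121 ± 3.06 in FDMn, with calls in all 4 comparisons. The call in FDMn against FD was lost without FDMn replicate 2 (0.19), and with FD replicate 3 alone the Hrg calls against Mock, FDI and FDMn were lost, at changes of 0.18, −0.19 and 0.23 (FD minus Mock, FDI minus FD and FDMn minus FD, adjusted p = 0.0823, 0.158 and 0.0909). Vtn, vitronectin, was higher in FDMn than in FDI (0.24 ± 0.07, adjusted p = 0.0335), a call kept only when FDMn replicate 3 was the library left out (0.22 to 0.26 in the others).

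**Figure D5:**
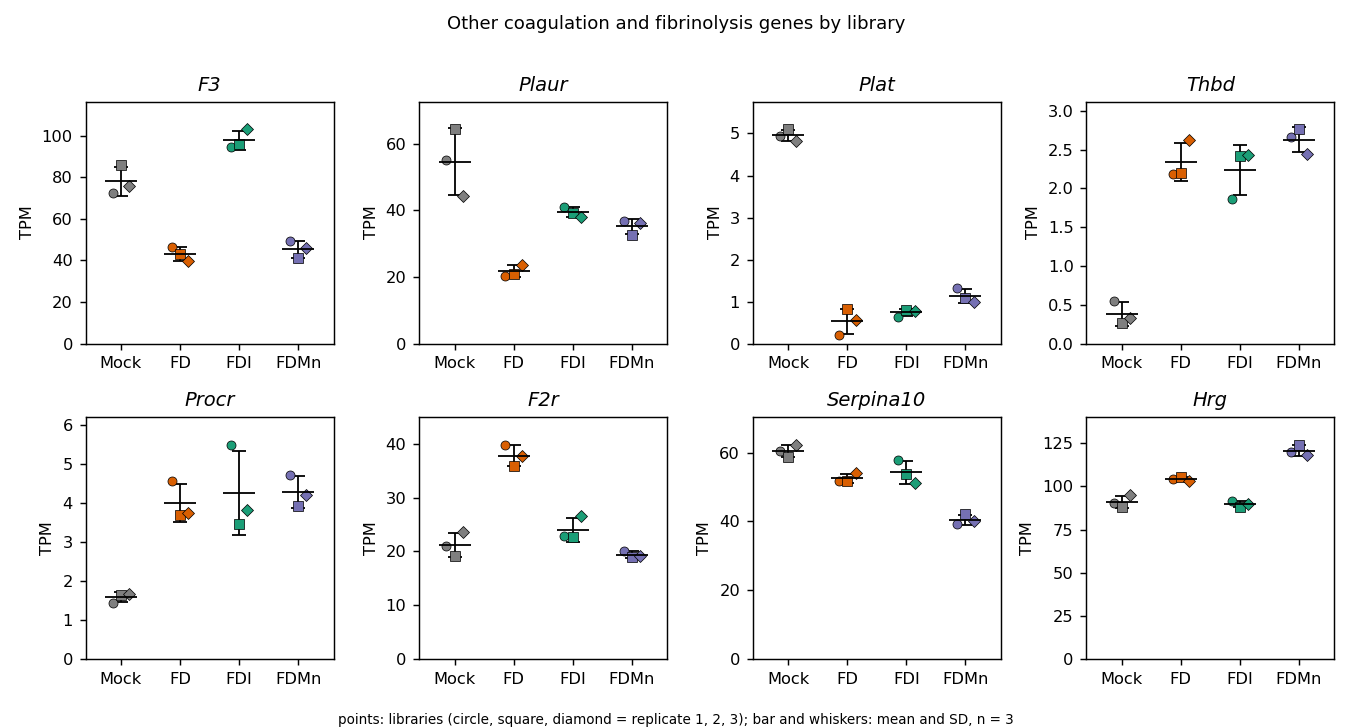
TPM per library by group for F3, Plaur, Plat, Thbd, Procr, F2r, Serpina10 and Hrg, which are not among the 42 members (y axis from 0 in each panel, points are libraries, bars and whiskers are mean and SD of 3). F3 is highest in FDI, Plat and Plaur in Mock, F2r in FD and Hrg in FDMn, and Serpina10 is lowest in FDMn.

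Of 26 further complement genes listed, 13 were tested. In FD against Mock 4 of the 13 were called (30.8%, beside 41.1% of all genes). The receptor gene Cd93 (0.49 ± 0.13, adjusted p = 0.00786) and the factor H-related Cfhr2 (0.25 ± 0.07, adjusted p = 0.0145) rose there, and Clu and C1qbp fell. Clu, clusterin, an inhibitor of the terminal pore, went from 19641 ± 622 to 14164 ± 1033 TPM (−0.47 ± 0.06, adjusted p = 8.97e-05). C1qbp, a mitochondrial protein that also binds C1q, had −0.26 ± 0.06 there, rose in FDI against FD (0.26 ± 0.06, adjusted p = 0.0168) and was lower in FDMn than in FDI (−0.26 ± 0.06, adjusted p = 0.0144). Cd93 and Cfhr2 did not pass with FD replicate 3 alone (0.35 and 0.20, adjusted p = 0.169 and 0.182). The Cfhr2 call was also lost without Mock replicate 2 (0.22), and the FDI calls of C1qbp without FDI replicate 1 (0.23 and −0.23). Under median-of-ratios scaling C1qbp had −0.095 in FD against Mock (adjusted p = 0.304) and lost its FDI against FD call, and quantile normalization ended its FDMn against FDI call. In FDMn against FD limma called 0 of the 13, and 0 had an unadjusted p under 0.05.

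Known regulators of these genes and the fibrinogen-like gene Fgl1 were also listed, and all 18 were tested. In FD against Mock 5 rose and 5 fell (55.6%, beside 41.1% of all genes). Il6ra, the interleukin-6 receptor, rose from 5.59 ± 0.0801 to 30.1 ± 0.650 TPM (2.24 ± 0.09, adjusted p = 1.52e-09), the nuclear receptor Hnf4a from 52.1 ± 1.254 to 205 ± 2.99 TPM (1.96 ± 0.04, adjusted p = 1.02e-11) and the liver factor Foxa2 from 28.8 ± 0.632 to 67.9 ± 6.83 TPM, 2.35-fold (adjusted p = 6.27e-07). Cebpb, a C/EBP factor of the acute phase response, rose in FD (1.12 ± 0.07) and again in FDI and FDMn over FD (0.48 ± 0.07 and 0.41 ± 0.07). Nfkb1 (−1.72 ± 0.10), its inhibitor Nfkbia (−0.81 ± 0.10) and the glucocorticoid receptor gene Nr3c1 (−0.43 ± 0.09) fell in FD. Stat3, the transducer of interleukin-6 signals, had 73.4 ± 10.0 TPM in FD and fell to 52.9 ± 5.31 in FDI and 49.0 ± 1.01 in FDMn (adjusted p = 0.00959 and 0.00291). Summed fibrinogen had its lowest mean in FDI and its highest in FDMn, and a link to Stat3 was not tested. Between FDMn and FDI, 4 of the 18 genes were called higher in FDMn and 0 lower (0 lower at an unadjusted p under 0.05, limma), where 5.68% of all genes were higher and 11.9% lower. They were led by Foxa2 (0.48 ± 0.09, adjusted p = 0.00339), Cebpa (0.44 ± 0.07, adjusted p = 0.00144) and Jak1 (0.38 ± 0.09, adjusted p = 0.0158). Foxa2 had means of 67.9 TPM in FD, 41.0 in FDI and 57.6 in FDMn, and Cebpa had 31.8, 25.7 and 35.2. Both fell in FDI against FD (−0.71, adjusted p = 0.000296, and −0.29, adjusted p = 0.0176, limma). That Cebpa call was lost without FDI replicate 2 or FDI replicate 3 (−0.30 to −0.26). Foxa3 rose over FD in both FDI (0.61 ± 0.14, adjusted p = 0.0112) and FDMn (0.76 ± 0.14, adjusted p = 0.00325), and Foxa1 fell in FDI (−0.46 ± 0.12, adjusted p = 0.0217). The Jak1 call was lost without FDMn replicate 1, FDMn replicate 3 or FDI replicate 1 (0.32 to 0.37), that of Foxa3 in FDI without FDI replicate 3 (0.54), and that of Foxa1 without FDI replicate 1, FDI replicate 3 or FD replicate 1 (−0.46 to −0.41). Against FD replicate 3 alone, the changes of Stat3 were −0.24 in FDI and −0.35 in FDMn (adjusted p = 0.294 and 0.117), and those of Foxa3 were 0.31 and 0.45 (adjusted p = 0.226 and 0.0718). The calls of Cebpb in FDMn (0.36, adjusted p = 0.0785) and Foxa1 in FDI (−0.49, adjusted p = 0.169) were lost in that setting too.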

How the data were processed

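Poly-A RNA of 12 hepatocyte libraries was measured, and the authors deposited gene-level TPM for each in 1 table. All its value columns were used. The submitters' processing notes name kallisto 0.44.0, the build GRCm38.p6 and, without its role, DESeq2. The sources used here do not give the annotation, the filters or the use of strand, so reads of a gene and of an antisense or overlapping gene cannot be told apart. TPM keeps no depth, which is unknown, so no counting interval is given.

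Genes with at least 1 TPM in at least 3 of the 12 libraries (11544) were analysed as log2(TPM + 1), a scale that understates changes of low genes, and folds are ratios of mean TPM. A model with 1 term per group was fitted with limma 3.58.1 in R 4.3.3 (intensity trend, two-sided, Benjamini-Hochberg over all genes, threshold 0.05) and was tested on simulated data. The 4 comparisons share groups. The members, the other lists and the naming rule were chosen with earlier results of these data known. The rule gave library values for the fibrinogen genes and for members with a called log2 change of at least 0.58, and took up to 3 genes per direction from each further list and comparison. Library values of C3, C1s1, Serping1 and F3 were added after they were seen. Coordinates come from GENCODE M21 and promoters from RefSeq. A gene that the rule takes is not reported here. The complement gene C4a and the marker Tf were not used here.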

Additional observations from a re-analysis of the deposited data

How the results depend on the processing

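Depth is unknown, and 3 libraries per group limit the precision. Of the counts and medians of members, these moved. In FD against Mock, median-of-ratios scaling gave 20 higher and 1 lower with a median of 0.23, quantile normalization 9 and 2 with 0.12, a fit of only the 2 groups 2 lower, and FD replicate 3 alone (added after seeing the data, with the lone library assumed to vary like the others) 0 lower. In that comparison C1ra changed sign without a call in the main analysis, to 0.16 under median-of-ratios scaling. In FDI against FD both scalings gave 10 lower and a median of −0.14, no filter a median of −0.072, and the 2-group fit and FD replicate 3 alone 3 lower each. In FDMn against FD the last setting gave 3 higher and 1 lower. In FDMn against FDI quantile normalization gave a median of 0.25. Leaving out 1 library gave 5 to 6 higher and 1 to 4 lower in FD against Mock (median 0.029 to 0.091), 4 to 8 and 2 to 5 in FDMn against FD (0.022 to 0.097), 0 and 3 to 7 in FDI against FD (−0.099 to −0.039), and 9 to 14 and 1 in FDMn against FDI (0.092 to 0.16). A pseudocount of 0.1 moved no count by over 1.5 times. With the replicate number as a replicate block, 5 rose and 3 fell, 7 and 4, 0 and 5, and 14 and 1 in FD against Mock, FDMn against FD, FDI against FD and FDMn against FDI. Same-numbered libraries did not deviate together (18 pairs, r from −0.10 to 0.07, 5 of 12 libraries closest to their own number), so the numbers are not taken as pairs.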
